A study of Homo sapiens with 8 samples.

Results

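The Eph receptors and ephrins described here are 8 genes named by symbol, the receptors EPHA2, EPHA4, EPHB2 and EPHB4 and the ligands EFNA1, EFNA5, EFNB1 and EFNB2. All 8 were found by their Ensembl identifiers among the 58735 genes of the tables, which match release 29 of the GENCODE annotation of GRCh38 in position, and 7 of the 8 held enough reads to be tested. The cells were U2OS, an established human osteosarcoma line, transduced with a pLKO.1 lentivirus and selected with puromycin. The WT cells, called control cells here, carried a control shRNA (shControl), and the KD cells carried an shRNA against WSB2 (shWSB2), a substrate receptor of an E3 ubiquitin ligase that the study connects with the NF-κB subunit RelA. Each was left unstimulated or was stimulated with TNF-α for 5 h, which makes 4 groups of 2 libraries. The comparisons ask how TNF-α and the knockdown of WSB2 each move these transcripts and whether they do so together. The text names neither the WSB2 shRNA that was sequenced nor the concentration of TNF-α. Nothing says that the 2 libraries of a group came from separate cultures, so the p-values measure the spread between these libraries only.

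Eph receptors are receptor tyrosine kinases, and ephrins are their ligands on the surface of neighboring cells, so that signaling needs contact between cells. Ligands of class A are held in the membrane by a glycosylphosphatidylinositol anchor, while those of class B cross it and carry a cytoplasmic tail. Binding starts forward signaling in the cell with the receptor, which acts on the cytoskeleton and on the adhesion of the cell, and reverse signaling in the cell with the ligand. The family is known for guiding axons, for setting boundaries between tissues and the vasculature, and in bone for communication between osteoclasts and osteoblasts through ephrin-B2 and EphB4. EphA2 is often abundant in solid tumors, and EFNA1 was first cloned as a gene that TNF-α induces in endothelial cells.

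The libraries held between 15601098 and 18677023 reads, recovered as whole numbers from the deposited FPKM, a level per exon length and library size that lets genes be compared. Both unstimulated KD libraries stood apart from the other 6. The percentage of their reads from mitochondrial genes was 4.10 and 4.42%, against 1.11 to 2.03% elsewhere, and the read-weighted GC content of their genes was 49.9 and 49.4%, against 52.5 to 53.2%. A read was seen for 26225 and 26397 genes in them and for 22072 to 22957 genes in the others. WSB2 itself fell by 1.61 on the log2 scale in KD cells without TNF-α and by 1.37 with it (limma adjusted p = 0.000119 and 0.00113, the latter 0.0519 without the second stimulated KD library), and 6 of 6 known TNF-α target genes, such as NFKBIA, rose in both cell types. Of 6 mesenchymal markers 5 reached 1 FPKM in all groups, the exception being COL1A2, and none of 4 epithelial, 4 leukocyte or 4 endothelial markers did. Of 4 neural markers SYP alone reached 1 FPKM, and it held 3.64 and 3.81 FPKM in KD cells with TNF-α against 0.997 to 1.73 FPKM elsewhere, while TUBB3, MAP2 and RBFOX3 stayed below 1 FPKM in every library. The 4 summed to 5.02 and 5.15 FPKM in KD cells with TNF-α and to 2.26 to 3.15 FPKM in the other libraries, and the part of SYP in the results was not tested.

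EPHA2, which binds mainly ephrins of class A, had the highest level of the 14 Eph receptor genes in every library. Its 2 libraries held 87.4 and 91.2 FPKM in unstimulated control cells, 62.9 and 58.3 FPKM in unstimulated KD cells, 149.3 and 163.5 FPKM in control cells with TNF-α and 213.1 and 202.6 FPKM in KD cells with TNF-α. The 4 groups did not overlap, and the order was KD with TNF-α, control with TNF-α, control and KD. EPHB4, the receptor of ephrin-B2, came next with 32.2 and 32.3 FPKM in control cells, 17.8 and 17.0 FPKM in KD cells, 26.1 and 28.8 FPKM in control cells with TNF-α and 24.4 and 24.3 FPKM in KD cells with TNF-α. These groups did not overlap either, with unstimulated control cells highest and unstimulated KD cells lowest.

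EPHB2, a receptor of class B ephrins known for sorting cells in the intestinal crypt, held 14.2 and 15.5 FPKM in control cells, 9.84 and 10.2 FPKM in KD cells, 17.1 and 18.3 FPKM in control cells with TNF-α and 17.3 and 17.5 FPKM in KD cells with TNF-α. Both stimulated groups were above the unstimulated ones and overlapped each other. EPHA4, which binds ephrins of both classes, was barely expressed, at 0.353 and 0.337 FPKM in control cells, 0.488 and 0.569 FPKM in KD cells, 0.233 and 0.197 FPKM in control cells with TNF-α and 0.329 and 0.352 FPKM in KD cells with TNF-α. Unstimulated KD cells were highest and stimulated control cells lowest, the other groups overlapped, and the values rested on 23 to 83 reads a library. Fewer cells with a transcript and less of it per cell cannot be told apart in such bulk samples.

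**Figure D1:**
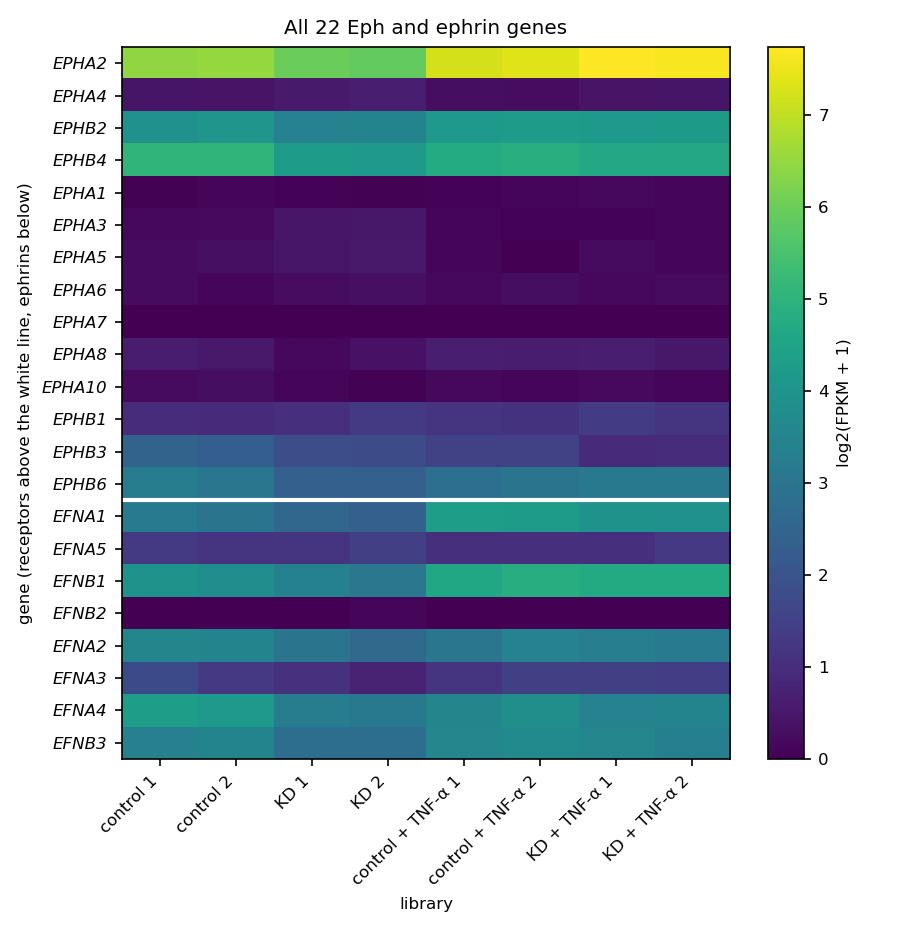
Level of the 22 Eph and ephrin genes (rows) in the 8 libraries (columns), as log2(FPKM + 1) in color from 0 upward. The row of EPHA2 is the brightest in every library, from 58.3 to 213.1 FPKM, and those of EPHA7 and EFNB2 stay near 0.

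Among the ligands, EFNB1 and EFNA1 were the members with clear levels. EFNB1, a class B ephrin whose mutation causes craniofrontonasal syndrome, held 14.9 and 13.0 FPKM in control cells, 9.55 and 7.38 FPKM in KD cells, 23.2 and 27.2 FPKM in control cells with TNF-α and 25.4 and 25.4 FPKM in KD cells with TNF-α. Both stimulated groups overlapped each other and lay above both unstimulated ones. EFNA1, a ligand of EphA2, held 8.35 and 6.80 FPKM in control cells, 4.85 and 4.14 FPKM in KD cells, 18.9 and 18.2 FPKM in control cells with TNF-α and 14.6 and 14.3 FPKM in KD cells with TNF-α. Its 4 groups did not overlap, and control cells were above KD cells in both conditions.

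EFNA5, a class A ephrin best known from the mapping of retinal axons, held 1.49 and 1.24 FPKM in control cells, 1.31 and 1.74 FPKM in KD cells, 1.12 and 1.13 FPKM in control cells with TNF-α and 1.13 and 1.43 FPKM in KD cells with TNF-α, and neighbors in the order of group means overlapped except for the stimulated control cells, which were lowest. EFNB2, the class B ephrin that binds EphB4, had 10 reads in all. They lay in the unstimulated KD libraries, with 1 and 8 reads, and in a stimulated control library, with 1 read, and 5 libraries had none, where a count of 0 allows up to 0.0345 to 0.0399 FPKM (3 reads, counting error only). EFNB2 was therefore at the limit of detection at this depth and was not tested.

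**Figure D2:**
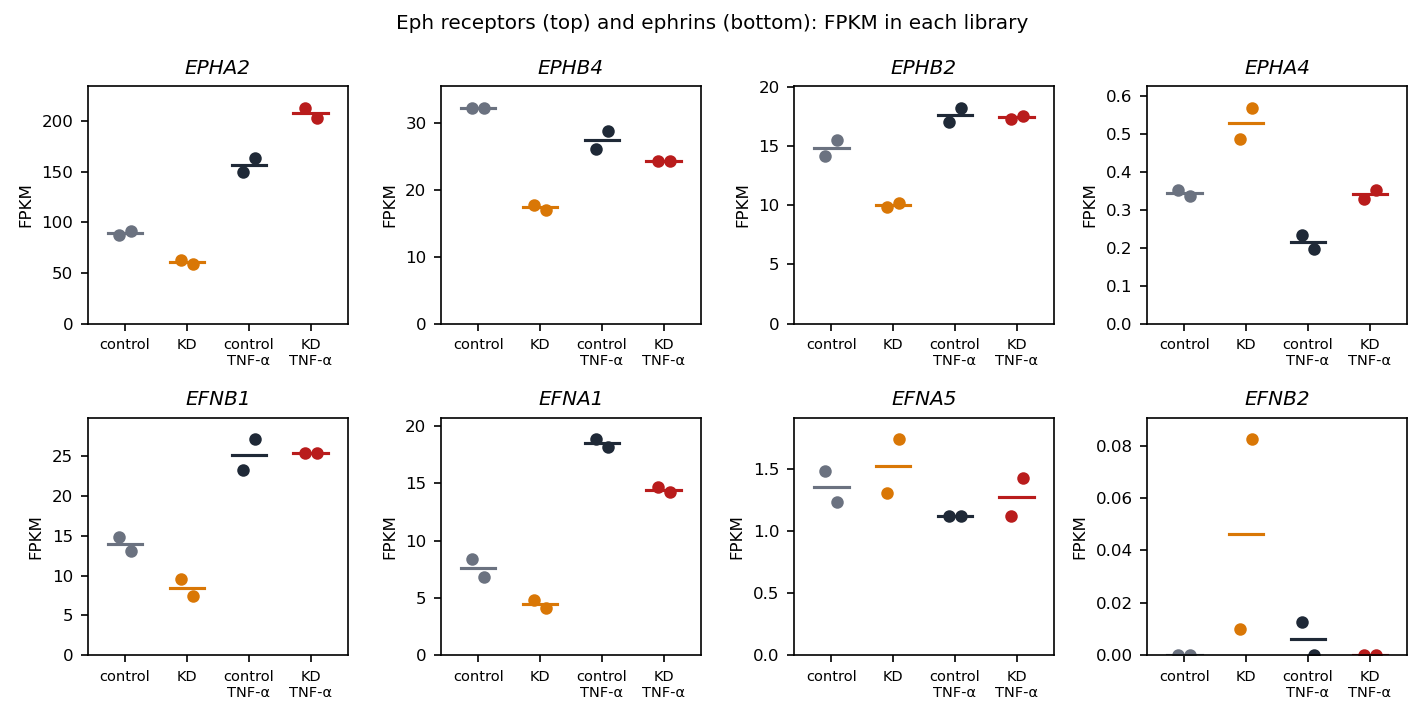
FPKM of each of the 8 genes (panels, each with its own axis from 0) in the 4 groups. Points are the 2 libraries of a group and bars their mean. EPHA2, EPHB2, EFNB1 and EFNA1 are higher in every stimulated library than in any unstimulated one, and EFNB2 does not pass 0.0826 FPKM. Of all genes tested, 42.5% did not overlap between libraries with and without TNF-α in control cells and 84.8% in KD cells. The share over both cell types together was not computed.

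The genes lie apart in the genome, on GRCh38, and share no locus. EPHA2 lies on the minus strand at chr1:16124337-16156087, EPHB2 on the plus strand at chr1:22710839-22921500 and EFNA1 on the plus strand at chr1:155127460-155134857. EPHB4 lies on the minus strand at chr7:100802565-100827521 and EFNB1 on the plus strand at chrX:68828997-68842147. EPHA4 (chr2:221418027-221574202), EFNA5 (chr5:107376889-107670895) and EFNB2 (chr13:106489731-106535662) are on the minus strand. The GC content of the longest transcript was 60.8% for EPHB4, 60.5% for EFNB1, 60.3% for EPHA2, 58.5% for EFNA1 and 55.6% for EPHB2, and was low for EPHA4 (44.8%) and EFNA5 (43.2%). Whether the counting used the strand is not stated in the sources used here. EPHA2 overlaps the antisense gene AL451042.2, which held 29 to 87 reads a library against 4682 to 15312 for EPHA2, and EPHB4 overlaps SLC12A9 on the opposite strand, with 628 to 808 reads a library against 2116 to 3603 for EPHB4.

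The promoters are shown for EPHA2 and EFNB1, which TNF-α raised in both cell types, and for EPHB4, which has a like GC content in its transcript and was not raised in control cells. They are RefSeq sequences of GRCh38.p14 before the start of transcription, 5′ to 3′ on the strand of the gene, cut where a GENCODE transcript begins, at chr1:16156088-16156319 for EPHA2, chrX:68828771-68828996 for EFNB1 and chr7:100827524-100827773 for EPHB4. Capitals mark GC boxes (GGGCGG on either strand) and, in EPHA2, a cyclic AMP response element (TGACGTCA). EFNA1, which TNF-α also raised in both cell types, is left out because its RefSeq window lies wholly past the GENCODE start.
EPHA2: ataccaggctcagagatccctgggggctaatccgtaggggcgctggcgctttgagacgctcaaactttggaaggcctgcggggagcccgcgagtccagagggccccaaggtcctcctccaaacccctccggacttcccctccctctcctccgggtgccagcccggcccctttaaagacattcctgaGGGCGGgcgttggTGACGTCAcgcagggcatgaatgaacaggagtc
EFNB1: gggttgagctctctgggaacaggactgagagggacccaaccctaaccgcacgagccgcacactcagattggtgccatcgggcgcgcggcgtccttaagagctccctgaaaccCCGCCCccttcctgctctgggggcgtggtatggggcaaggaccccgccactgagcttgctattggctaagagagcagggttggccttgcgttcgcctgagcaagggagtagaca
EPHB4: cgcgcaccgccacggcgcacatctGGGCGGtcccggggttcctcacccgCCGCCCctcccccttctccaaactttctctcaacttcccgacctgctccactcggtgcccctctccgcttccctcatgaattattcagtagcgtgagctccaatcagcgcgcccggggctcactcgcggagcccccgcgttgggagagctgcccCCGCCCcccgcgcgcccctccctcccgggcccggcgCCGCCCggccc

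In the 250 bases before the start, all 8 genes had a GC box, as 42.6% of the 35116 promoters of the table do. In these windows none of the 8 held the NF-κB consensus site, found in 9.96% of promoters, or the AP-1 site TGANTCA on either strand, found in 6.57%. The window of EFNA1, chr1:155127626-155127875, lies wholly after the GENCODE start of the gene at 155127460. The bases before that GENCODE start were not searched. The response element of EPHA2 was found in 1.65% of promoters and looked for after its sequence was seen. It begins 51 bases before the RefSeq start, next to a GC box that begins 64 bases before that start. The sequence printed for EPHA2 leaves out the last 18 bases before the RefSeq start. A match of letters is a description and not a binding site, and these windows leave out introns and distant enhancers.

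TNF-α raised EPHA2, EFNA1 and EFNB1 in control cells. EFNA1 rose 2.44-fold, from 7.58 FPKM ± 1.10 to 18.5 FPKM ± 0.478 (SD, n = 2), a log2 difference of 1.19 with an SE of 0.111 (limma adjusted p = 0.000995). EFNB1 rose 1.81-fold, from 13.9 FPKM ± 1.31 to 25.2 FPKM ± 2.79, a log2 difference of 0.81 with an SE of 0.130 (limma adjusted p = 0.0154). EPHA2 rose 1.75-fold, from 89.3 FPKM ± 2.67 to 156.4 FPKM ± 10.1, a log2 difference of 0.80 with an SE of 0.088 (limma adjusted p = 0.00237). In each of the 3 genes both stimulated libraries lay above both unstimulated ones.

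These 3 of 7 tested members compare with 4.24% of the 16528 genes that passed the test in this comparison, 3.1% as higher and 1.14% as lower, and the groups of all 7 did not overlap, as was so for 42.5% of all genes tested. The other receptors missed it, with log2 differences of 0.24 for EPHB2 (limma adjusted p = 0.170), -0.23 for EPHB4 (0.169) and -0.15 for EPHA4 (0.263), and so did EFNA5 at -0.15 (0.602). The 95% intervals of these differences ran from 0.054 to 0.42 for EPHB2, from -0.40 to -0.052 for EPHB4, from -0.29 to -0.0064 for EPHA4 and from -0.44 to 0.13 for EFNA5. The median over the 7 members was a log2 difference of 0.24, against 0.0085 over all genes tested. Over all 19 Eph and ephrin genes tested it was -0.097, and over the other 12 it was -0.14. The members were chosen with earlier results of these data known, so these counts and medians are a description of them and not of the family. Without the second stimulated control library EFNB1 had a log2 difference of 0.70 and missed the test (limma adjusted p = 0.125), and without the second unstimulated control library EPHB2 passed it at 0.30 (0.0447). After a correction of each library along GC content and exon length (the GC correction), EPHB4 passed as lower, at -0.32 (limma adjusted p = 0.0190). Without both unstimulated KD libraries the same 3 members passed.

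**Figure D3:**
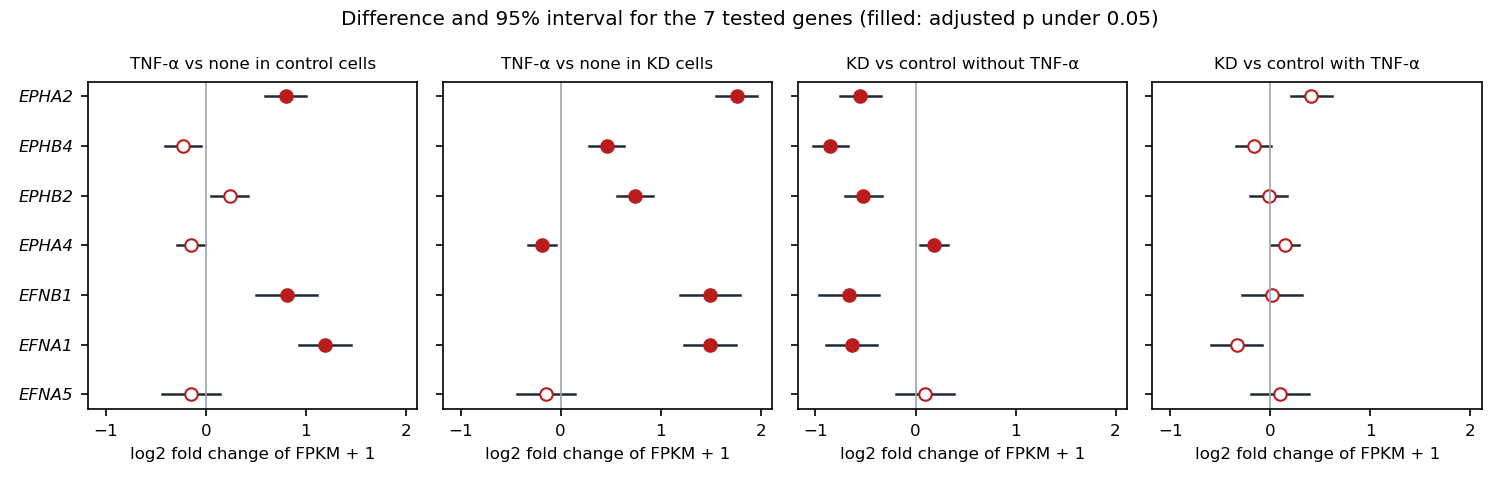
Log2 fold change of FPKM + 1 (horizontal axis) for the 7 tested members (rows) in 4 comparisons (panels). Points are the estimates, filled where the adjusted p is under 0.05, and lines their 95% intervals. EPHA2, EFNB1 and EFNA1 lie to the right of 0 for TNF-α in both cell types, and no point is filled for KD against control with TNF-α.

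In KD cells, TNF-α raised the same 3 genes and also EPHB2 and EPHB4. EPHA2 rose 3.43-fold, from 60.6 FPKM ± 3.24 to 207.8 FPKM ± 7.42 (SD, n = 2), a log2 difference of 1.76 with an SE of 0.088 (limma adjusted p = 1.8e-05). EFNA1 rose 3.21-fold, from 4.50 FPKM ± 0.4996 to 14.4 FPKM ± 0.270, a log2 difference of 1.49 (5.8e-05), and EFNB1 rose 3.004-fold, from 8.46 FPKM ± 1.53 to 25.4 FPKM ± 0.0387, also a log2 difference of 1.49 (8.7e-05). The rises were smaller in EPHB2, 1.74-fold with a log2 difference of 0.74 (0.00017), and in EPHB4, 1.40-fold with a log2 difference of 0.46 (0.00119). EPHA4 fell by 0.19 on the log2 scale (0.0263), and EFNA5 had a difference of -0.15 (0.330).

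That is 5 members higher and 1 lower, in a comparison where 62.5% of all genes tested passed, 31.1% as higher and 31.4% as lower. The groups of 6 of the 7 members did not overlap, as was so for 84.8% of all genes tested. The unstimulated KD libraries, from which the rises are measured, are the ones that stood apart in GC content. Across 16520 genes the log2 difference and GC content had a Spearman correlation of 0.676 in this comparison, against 0.072 for TNF-α in control cells. After the GC correction EPHA2 kept a log2 rise of 1.17, EFNA1 of 0.93, EFNB1 of 0.87 and EPHB2 of 0.47 (limma adjusted p = 4.9e-05, 0.000114, 0.000254 and 0.000632), while EPHB4 went to -0.064 (0.370) and EPHA4 to 0.050 (0.584). With total-read scaling EPHB4 was at 0.098 (0.289).

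The makeup of the family also differed between libraries with and without TNF-α. EPHA2 made up 58.5 and 59.7% of the summed FPKM of the 14 Eph receptors in control cells, 62.7 and 60.9% in KD cells, 73.5 and 73.7% in control cells with TNF-α and 79.9 and 79.2% in KD cells with TNF-α. All stimulated libraries lay above all unstimulated ones. The share of EPHB4 was lower with TNF-α, at 21.5 and 21.2% in control cells, 17.8% in both KD libraries, 12.9 and 13.0% in control cells with TNF-α and 9.15 and 9.51% in KD cells with TNF-α. Among the 8 ligands, EFNB1 took 21.8 to 25.0% of the summed FPKM without TNF-α and 31.6 to 36.0% with it, and EFNA1 took 11.4 to 12.7% and 20.1 to 25.7%.

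The ratio of EPHA2 to EFNA1, a receptor and its ligand, was 7.92 and 8.99 in control cells with TNF-α and 14.6 and 14.2 in KD cells with TNF-α. In unstimulated cells it was 10.5 and 13.4 with the control shRNA and 13.0 and 14.1 with the WSB2 shRNA, where the groups overlapped. The shares and ratios were chosen after the values were seen, and an exact permutation test of 2 libraries against 2 cannot give a p below 0.333, so none is given.

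**Figure D4:**
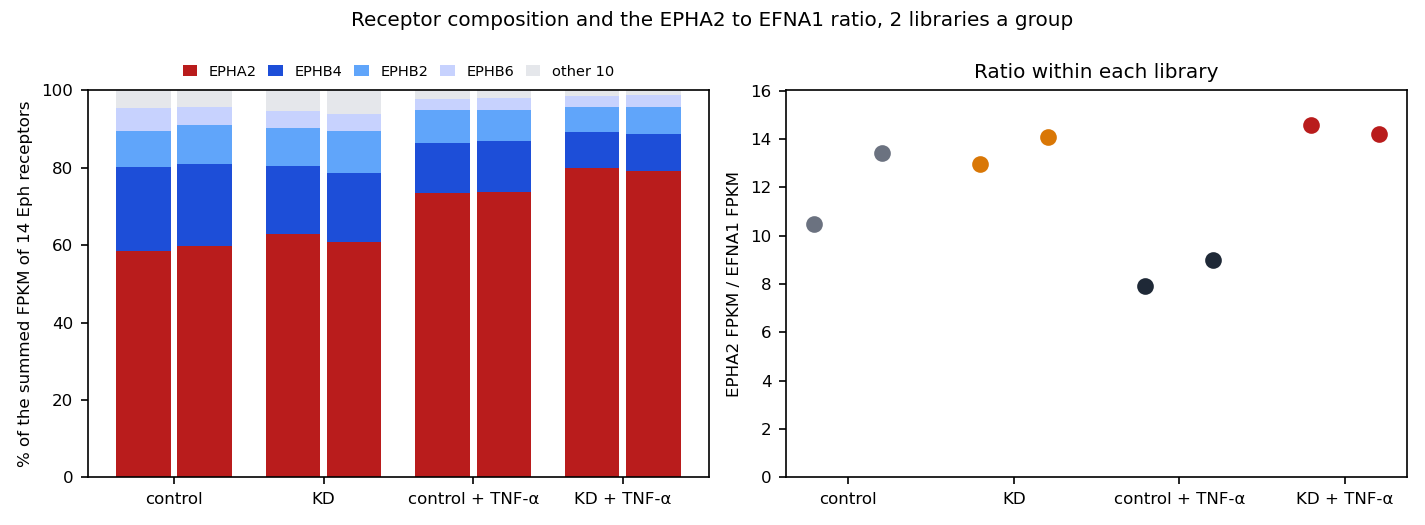
Left, percentage of the summed FPKM of 14 Eph receptors taken by EPHA2, EPHB4, EPHB2, EPHB6 and the other 10 in each library. Right, EPHA2 FPKM over EFNA1 FPKM in each library. The share of EPHA2 is 58.5 to 62.7% without TNF-α and 73.5 to 79.9% with it, and the ratio is lowest in control cells with TNF-α.

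Without TNF-α, KD cells had lower levels of 5 members and a higher level of 1. EPHB4 fell to 0.540 of its level in control cells, a log2 difference of -0.85 with an SE of 0.076 (limma adjusted p = 0.000162). EFNB1 fell by 0.67 on the log2 scale (0.003), EFNA1 by 0.64 (0.00167), EPHA2 by 0.55 (0.00114) and EPHB2 by 0.52 (0.000901). EPHA4 rose by 0.18 on the log2 scale (0.0299), from 0.345 FPKM ± 0.0118 to 0.528 FPKM ± 0.0577 (SD, n = 2), and EFNA5 differed by 0.095 (0.537), with a 95% interval from -0.19 to 0.38. The call of EPHA4 held under 7 of 17 alternatives.

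A share of 60.1% of all genes tested passed in this comparison, 29.8% as higher and 30.2% as lower, and 79.8% did not overlap between the groups. Across 16520 genes the log2 difference fell with GC content, with a Spearman correlation of -0.685, and the 5 members that fell have transcripts of 55.6 to 60.8% GC while EPHA4 has 44.8%. After the GC correction only EPHB4 and EPHB2 passed, at log2 differences of -0.43 (limma adjusted p = 0.00106) and -0.39 (0.00168). EPHA2 was then at -0.014 (0.888), EFNA1 at -0.090 (0.336), EFNB1 at -0.085 (0.443) and EPHA4 at -0.10 (0.270), so that 2 of 7 members passed in place of 6. Over all genes 8633 of 16520 passed after the correction, in place of 9928 of 16528. Knockdown of WSB2, the higher mitochondrial share and the lower GC content go together in the 2 unstimulated KD libraries and cannot be told apart.

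**Figure D5:**
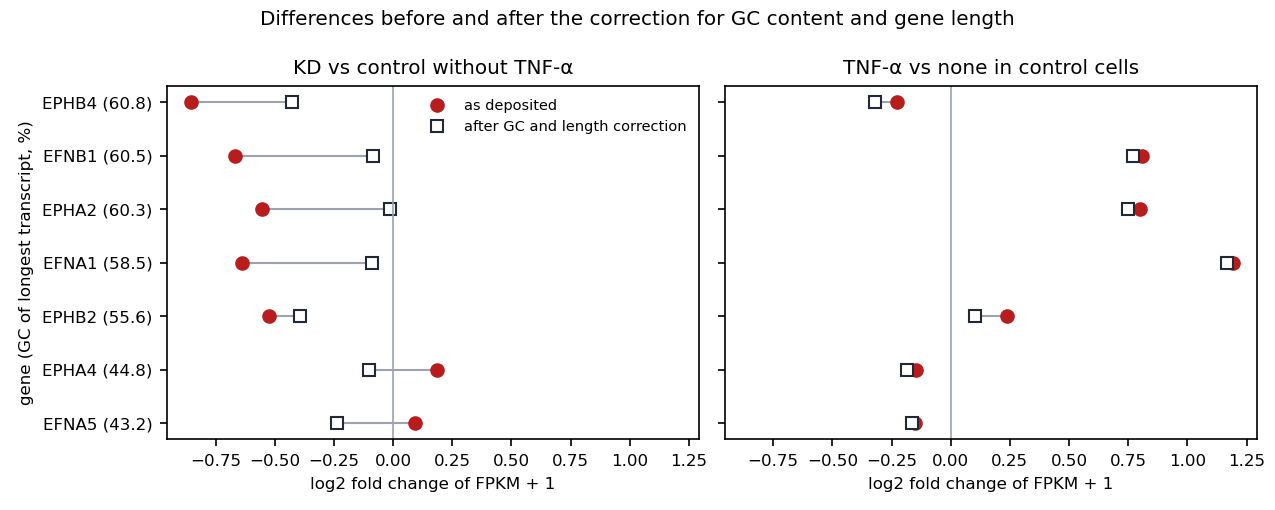
Log2 fold change of FPKM + 1 (horizontal axis) of the 7 tested members, in order of the GC content of their longest transcript, as deposited (filled) and after the GC correction (open). For KD against control without TNF-α (left) EPHA2 moves from -0.55 to -0.014, while for TNF-α in control cells (right) it moves from 0.80 to 0.75.

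With TNF-α, where the read-weighted GC content of the 4 libraries was 52.9 to 53.2%, none of the 7 members differed between KD and control cells by the test. The spread is estimated over all groups. Over genes with 50 or more reads in a pair, variance between libraries was 4.31 times sampling noise in stimulated control and 2.45 times in stimulated KD cells. It was 30.1 times in unstimulated control and 7.23 times in unstimulated KD cells, and these pairs enter the intervals here. A fit of only the 4 libraries compared also called 0 members. EPHA2 had the largest difference on the scale of log2(FPKM + 1), 207.8 FPKM ± 7.42 in KD cells against 156.4 FPKM ± 10.1 in control cells (SD, n = 2), a 1.33-fold ratio and a log2 difference of 0.41 with a 95% interval from 0.20 to 0.61. Its unadjusted limma p was 0.00187 and its adjusted p 0.198, which ranged from 0.0711 to 0.814 over 18 alternatives. EFNA1 was at 14.4 FPKM ± 0.270 in KD cells against 18.5 FPKM ± 0.478, a ratio of 0.780 and a log2 difference of -0.34 with an interval from -0.59 to -0.081 (unadjusted p = 0.0165, limma adjusted p = 0.438). The groups of 5 of the 7 members did not overlap, with EPHA2, EPHA4 and EFNA5 higher and EPHB4 and EFNA1 lower in KD cells, as was so for 46.2% of all genes tested on either side.

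The other differences on the scale of log2(FPKM + 1) were -0.17 for EPHB4, 0.14 for EPHA4, 0.098 for EFNA5, -0.018 for EPHB2 and 0.017 for EFNB1. As a ratio of mean FPKM the largest was that of EPHA4, at 1.58, which lies below 1 FPKM in every library. Their 95% intervals ran from -0.34 to 0.011 for EPHB4, from 0.0018 to 0.28 for EPHA4, from -0.19 to 0.39 for EFNA5, from -0.20 to 0.17 for EPHB2 and from -0.29 to 0.32 for EFNB1. In this comparison 19 genes, 0.115% of those tested, passed the limma test, 0.0605% as higher and 0.0545% as lower. At an unadjusted p under 0.05 there were 3 of the 7 members, EPHA2, EPHA4 and EFNA1, and 8.16% of all genes tested, and a voom fit of the recovered reads called 0 members as well.

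The test of whether TNF-α acted differently in KD and control cells, the interaction, passed for 4 of 7 members, all toward a more positive TNF-α difference in KD cells. The difference of the log2 differences was 0.96 for EPHA2 (limma adjusted p = 0.00174), 0.69 for EPHB4 (0.00265), 0.68 for EFNB1 (0.0184) and 0.51 for EPHB2 (0.00863). It was 0.30 for EFNA1 (0.152), with a 95% interval from -0.062 to 0.66, and -0.042 for EPHA4 and 0.0030 for EFNA5. Over all genes tested 46.1% passed, 23.8% as higher, and the Spearman correlation with GC content was 0.668. After the GC correction EPHA2 was at 0.42 (0.0209), EPHB2 at 0.37 (0.0162) and EPHB4 at 0.26 (0.0436), while EFNB1 was at 0.10 (0.543). With total-read scaling EPHB2 at 0.23 (0.180) and EFNB1 at 0.41 (0.0847) missed the limma test. EFNB1 also missed it without the second unstimulated KD, the first stimulated control or either stimulated KD library (limma adjusted p = 0.0551 to 0.0705). The unstimulated KD libraries enter this test, the rises in KD cells and the comparison without TNF-α, so these are not separate measurements.

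Of the other 14 genes of the family 12 could be tested, all but EPHA1 and EPHA7. In control cells TNF-α lowered EPHB3, a receptor of class B ephrins, from 4.30 FPKM ± 0.397 to 1.83 FPKM ± 0.0406 (SD, n = 2), a log2 difference of -0.90 (limma adjusted p = 0.00293). It also lowered EFNA4, a class A ephrin and the most abundant ligand of unstimulated control cells, from 17.8 FPKM ± 1.53 to 11.9 FPKM ± 1.69, a log2 difference of -0.55 (0.0397), a call that held under 6 of 18 alternatives, while that of EPHB3 held under all 18. None of the 12 rose in control cells, where 4.24% of all genes tested passed, 3.1% as higher and 1.14% as lower. In KD cells TNF-α raised EPHA8, EPHB6, EFNA2, EFNA3 and EFNB3 and lowered EPHA3, EPHA5 and EPHB3, with the fall of EPHB3 at -0.87 (limma adjusted p = 0.000263). Of all genes tested 62.5% passed in that comparison, 31.1% as higher and 31.4% as lower. The interaction of EPHB3 was 0.035, with a 95% interval from -0.30 to 0.37 (0.864). After the GC correction 1 of these 8 calls in KD cells, EPHB3, held, and EPHA3, EPHA5, EPHA8, EFNA2 and EFNA3 turned their direction. Over all genes 9399 of 16520 passed for TNF-α in KD cells after the correction, in place of 10328 of 16528.

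Without TNF-α, KD cells had lower levels of 8 of the 12, namely EPHA8, EPHA10, EPHB3, EPHB6, EFNA2, EFNA3, EFNA4 and EFNB3, and higher levels of EPHA3 and EPHA5, which stayed below 0.5 FPKM. Of all genes tested 60.1% passed in this comparison, 29.8% as higher and 30.2% as lower. On the scale of log2(FPKM + 1) the largest difference of the family genes named was that of EFNA4, which fell by 1.03 (limma adjusted p = 0.000272), to 0.460 of its mean FPKM in control cells. The ratios of EPHA10 (0.367), EPHA8 (0.446) and EPHA3 (3.02) lay further from 1. After the GC correction 2 of the 10 calls held, with EFNA4 at -0.51 (0.00191), and EPHA3, EPHA5, EPHA8, EPHA10 and EFNA3 turned their direction. Over all genes 8633 of 16520 passed after the correction, in place of 9928 of 16528. With TNF-α none of the 12 passed the limma test, which 0.115% of all genes tested passed. An unadjusted p under 0.05 was seen for 1 of the 12, EPHB3, and for 8.16% of all genes tested. EPHB3 was at 0.955 FPKM ± 0.0318 in KD cells and 1.83 FPKM ± 0.0406 in control cells, a log2 difference of -0.53 (limma adjusted p = 0.146).

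Of 59 genes known to carry or process Eph and ephrin signals 55 were tested. In control cells TNF-α raised 2 of them and lowered none, where 4.24% of all genes tested passed, 3.1% as higher and 1.14% as lower. CLDN1, which encodes the tight junction protein claudin-1, rose 6.06-fold from 1.98 and 2.19 FPKM to 12.4 and 12.9 FPKM (log2 difference 2.15, limma adjusted p = 3.5e-05), and SHB, an SH2 domain adaptor, rose 2.12-fold from 14.8 and 12.6 FPKM to 27.1 and 30.8 FPKM (1.03, 0.00152). In KD cells 21 rose and 15 fell, in a comparison that 62.5% of all genes passed, with SHB at 1.98, CLDN1 at 1.91, ROCK2 at -1.91 and ROCK1 at -1.67 on the log2 scale. ROCK1 and ROCK2 encode kinases that act on the actin cytoskeleton and on contraction.

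Between KD and control cells without TNF-α 18 of the 55 were higher and 19 lower, where 60.1% of all genes passed, led by ROCK2 (log2 difference 2.11), ROCK1 (1.89), the SRC family kinase YES1 (1.70) and the RAS GTPase activating protein RASA1 (1.46). After the GC correction ROCK2 was at 1.41 (limma adjusted p = 0.000227). ROCK2 held 12.3 and 14.5 FPKM in the unstimulated KD libraries and 1.97 to 3.32 FPKM in the other 6. With TNF-α only LIMK1, a kinase that inactivates cofilin, passed, at 12.4 and 11.7 FPKM in KD cells against 19.4 and 20.0 FPKM in control cells (log2 difference -0.67, limma adjusted p = 0.0489), a call that held under 7 of 18 alternatives and was lost when any of the 4 libraries compared was left out. LIMK1 was also lower without TNF-α, by 1.32 on the log2 scale (0.000119). Of all genes tested 0.115% passed for KD against control cells with TNF-α.

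The genes whose log2(FPKM + 1) followed a member most closely over the 8 libraries were ITGA5 and PPARD for EPHA2 (Pearson r = 0.9988 and 0.9982), NFKBIB and ALDH1B1 for EFNB1 (0.9968 and 0.9957) and ANXA8 and DKC1 for EFNA1 (0.9943 and 0.9923). They were IGHMBP2 and SF1 for EPHB2 (0.9973 and 0.9967) and EHMT2 and HR for EPHB4 (0.9938 and 0.9932). EPHA4 went with the mitochondrial pseudogene MTATP6P1 and with MT-CYB (0.9936 and 0.9856), and EFNA5 with AC247036.1 and CTBS (0.9508 and 0.9439). The 8 points are 4 groups of 2 that share libraries and their GC content, so these values are a description.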

How the data were processed

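The selection of RNA and the strand of counting are not given in the sources used here. Total RNA of U2OS cells was sequenced at Novogene (NovaSeq), in 4 groups of 2 libraries named by the labels. The submitters' processing notes name CASAVA 1.8, fastp, HISAT2 2.0.5, featureCounts 1.5.0-p3, DESeq2 1.20.0 and GRCh38. The authors deposited FPKM for 58735 genes per library, scaled over all 8 libraries together by median-of-ratios sizes. These sizes were 1.21 times the total reads in both unstimulated KD libraries and 0.925 to 1.03 times in the others. Whole reads were recovered for 100% of values, at a tolerance of 0.05 reads. All 8 columns of values were used.

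From the FPKM, log2(FPKM + 1) was tested with limma 3.58.1 in R 4.3.3, with a mean per group over all 8 libraries, 4 residual degrees of freedom and variances moderated with a trend on mean level. The filter asked for 10 reads, rescaled to the median depth, in 2 or more libraries and 15 reads over all of them, and 16528 genes passed it. Passing the test means a Benjamini-Hochberg adjusted p under 0.05 over these genes. The edgeR test of the study's methods was not repeated, and the recovered reads were fitted with voom instead, as an alternative. Fold changes on this scale understate those of genes near or below 1 FPKM, and ratios are of mean FPKM. The script was tested on simulated data.

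The genes named are the 8 members, WSB2, the members of the family that passed a comparison, up to 4 signaling partners a comparison by size of change, 6 TNF-α targets, marker genes and the 2 genes most correlated with each member. Members and lists were chosen with earlier results of these data known. Alternatives were a pseudocount of 0.1, upper-quartile and total-read scaling, no filter, a mean of at least 1 CPM, fits of the compared libraries alone, leaving out each library, the replicate number as a block, voom on recovered reads, and the GC correction, in which splines with 5 degrees of freedom on GC content and gene length were fitted to each library and subtracted. A fit of 6 libraries, without the unstimulated KD ones, was added after the data were seen. Promoters were searched on both strands in Python 3.11.15. Beyond the RefSeq promoters and the GENCODE transcripts, no genome or protein sequence was used here.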

Additional observations from a re-analysis of the deposited data

Results flagged for a closer look

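For the 13 genes listed here the difference between KD and control cells was not the same with and without TNF-α, by limma's test of the interaction. They are all Eph and ephrin genes that passed and only 4 of the signaling partners that did. The values are the log2 difference with TNF-α minus that without it. Among the members they were 0.96 for EPHA2, 0.51 for EPHB2, 0.69 for EPHB4 and 0.68 for EFNB1. Among the other Eph and ephrin genes they were 0.99 for EPHB6, 0.81 for EFNA4, 0.73 for EFNA2, 0.44 for EFNB3 and -0.29 for EPHA3. Of the 55 signaling partners tested 15 passed as higher and 15 as lower. The 4 largest of them in absolute size were -2.23 for ROCK2, -1.92 for ROCK1, -1.71 for YES1 and -1.41 for PTPN11. The test passed for 46.1% of all genes, and all 13 values use the unstimulated KD libraries, which stood apart in GC content and mitochondrial share. The part of these libraries in the values was not tested beyond the GC correction, and PTPN11 was not followed under any alternative. After the correction EPHB6 was at 0.50, EFNA4 at 0.30, EFNA2 at 0.074, EFNB3 at -0.10 and EPHA3 at 0.28 (limma adjusted p = 0.0144, 0.0766, 0.747, 0.638 and 0.0478). Groups of 2 libraries allow no test of an outlying library.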

How the results depend on the processing

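Of 602 values of members under alternatives, 549 kept their direction and side of the threshold, 30 no longer passed, 5 passed newly and 18 changed sign. The calls of EPHA2, EFNA1 and EFNB1 for TNF-α in KD cells and of EPHA2 and EFNA1 in control cells held under every alternative. EFNB1 in control cells missed the test with no filter (limma adjusted p = 0.0780) and without 1 library (0.125). EPHA4 kept its fall with TNF-α in KD cells under 9 of 17 alternatives. The interaction passed for 2 members with total-read scaling in place of 4, and KD against control without TNF-α passed for 2 with the GC correction in place of 6. Over all genes these settings gave 7406 calls in place of 7614 and 8633 in place of 9928. Leaving out 1 library gave 5 to 6 members for KD without TNF-α, 5 to 6 for TNF-α in KD cells, 2 to 4 for TNF-α in control cells, 3 to 5 for the interaction and 0 for KD with TNF-α. EFNA1 passed the interaction without the second unstimulated control library (0.43) and with upper-quartile scaling (0.51).

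The changes of sign with the GC correction were the interaction of EFNA1 (-0.24) and EPHA4 (0.23), KD without TNF-α for EFNA5 (-0.24) and EPHA4 (-0.10), and TNF-α in KD cells for EFNA5 (0.17), EPHA4 (0.050) and EPHB4 (-0.064). With total-read scaling they were the interaction of EFNA5 (-0.19) and KD with TNF-α for EFNB1 (-0.0025), and with upper-quartile scaling KD without TNF-α for EFNA5 (-0.051) and the interaction of EPHA4 (0.039), which voom put at 0.047. Leaving out a library turned the interaction of EFNA5 (-0.12 to 0.13), KD without TNF-α for EFNA5 (-0.030 to 0.22) and KD with TNF-α for EFNB1 (-0.092 to 0.13) and EPHB2 (-0.064 to 0.028). Of 828 values of the other Eph and ephrin genes, WSB2 and 7 named signaling genes, 729 kept their call, 87 lost it and 12 turned, all with the correction: the interaction of EFNB3 (-0.10) and EPHA3 (0.28), KD without TNF-α for EFNA3 (0.041), EPHA10 (0.24), EPHA3 (-0.26), EPHA5 (-0.52) and EPHA8 (0.24), and TNF-α in KD cells for EFNA2 (-0.24), EFNA3 (-0.13), EPHA3 (0.17), EPHA5 (0.34) and EPHA8 (-0.33). The cause was not tested.

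Over all genes, the 19 calls for KD with TNF-α became 12 with upper-quartile scaling, 7 with no filter, 39 with only the libraries compared, 52 with voom, 68 with the correction, 7 without the unstimulated KD libraries and 0 to 98 without 1 library (98 without the first unstimulated control library). The 701 for TNF-α in control cells became 368 with no filter, 238 with only the libraries compared, 443 without the unstimulated KD libraries and 229 to 2130 without 1 library (229 without the second stimulated control library, 2130 without the second unstimulated control library). Total-read scaling shifted the median log2 difference of all genes to 0.13 for KD without TNF-α, -0.19 for TNF-α in KD cells and -0.14 for the interaction, and upper-quartile scaling to -0.12, 0.080 and 0.12. For KD without TNF-α the split of higher and lower calls was 4932 and 4996, against 6515 and 3456 with total-read and 3805 and 6273 with upper-quartile scaling. For TNF-α in KD cells it was 5141 and 5187, against 3309 and 7240, and 6128 and 4075, for the interaction 3935 and 3679, against 2440 and 4966, and 5140 and 2781, and for TNF-α in control cells 512 and 189, against 379 and 250 with total-read scaling.

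The labels number libraries 1 and 2 in each group. Differences between numbers correlated at -0.191 to 0.350 between groups, and the numbers were not taken as pairs. The value of 0.350 was between unstimulated control and unstimulated KD cells, and the others were -0.191 to 0.017. With the replicate block no member's call changed (0 called for KD with TNF-α and 6 without it), and 10 genes in all passed for KD with TNF-α in place of 19. Small differences of EPHA4 (23 to 83 reads a library) and EFNA5 (99 to 192) were poorly resolved, and EFNB2 (10 reads in all) was not tested. The calls of EPHA4 for KD without TNF-α and for TNF-α in KD cells held under 7 and 9 of 17 alternatives.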
